A study of Mus musculus with 8 samples.

Results

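The nuclear genes of respiratory complex I were compared between 2 ages of the mouse small intestine in RNA-seq of its mesenchyme, the muscle, nerve, vessel and connective tissue wall. They were taken as the protein-coding rows of the deposited table whose name starts with Nduf, leaving out Ndufa4l2. This gave 50 genes of 46635 loci, made up of 42 genes for subunits and their copies and 8 Ndufaf genes for assembly factors. The P14 group held 4 libraries from wild-type pups at postnatal day 14, and the E17.5 group held 4 libraries from wild-type fetuses of stage E17.5 by the protocol (the age label writes E17). The intestines had been treated with EDTA to detach the epithelium before RNA was taken. The design text counts 4 mice at each age, but no label ties a library to an animal or a litter, so the p-values measure the spread between these samples. No transgene or treatment that differs between the ages is labelled.

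Complex I, NADH:ubiquinone oxidoreductase, is the entry point of NADH electrons into the mitochondrial respiratory chain, and it pumps protons across the inner membrane. A peripheral arm in the matrix takes electrons from NADH over a flavin and a chain of iron-sulfur clusters to ubiquinone, and a membrane arm pumps. Core subunits do the chemistry and are encoded partly in the nucleus and partly in mitochondrial DNA; accessory subunits surround and stabilise them. Assembly factors build the modules and are not part of the finished enzyme.

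The libraries held 17702122 to 18474346 reads assigned to genes at P14 and 16660998 to 19496632 at E17.5. P14 replicate 1 stood apart. Its log2(FPKM + 1) values correlated with those of the other P14 libraries at 0.78 to 0.873 across the 14044 tested genes, which are not independent replicates, while those 3 gave 0.956 to 0.974 among themselves and the E17.5 libraries gave 0.974 to 0.987. The FPKM of 18 pan-epithelial markers summed to 6677 in P14 replicate 1 and to 158 to 902 in the other P14 libraries, against 45.4 to 67.8 at E17.5, and 17 of the 18 were higher in every P14 library than in any E17.5 library. RNA of epithelial marker genes was therefore present in the P14 libraries after the EDTA step. Smooth muscle markers summed to 3966 in P14 replicate 1 and 11064 to 15495 in the other P14 libraries, against 6240 to 7076 at E17.5. Fibroblast markers summed to 1071 in P14 replicate 1 and 2887 to 2958 in the other P14 libraries, against 2901 to 3356 at E17.5. Erythroid markers, at 339 to 569 over the P14 libraries against 1649 to 2404 at E17.5, and macrophage markers, at 144 to 221 against 336 to 388, were lower at P14, with 5 of 7 and 5 of 8 markers lower in every P14 library. B and plasma cell markers summed to 182 in P14 replicate 1 and 63.3 to 177 in the other P14 libraries, against 75.8 to 85.1 at E17.5. Of these 8 markers, 5 were higher in every P14 library and 1, Xbp1, was lower. Xbp1 measured 43.8 to 68.3 FPKM at P14 and 70.9 to 78.7 FPKM at E17.5, where it made up most of each sum. Enteric neuron markers summed to 169 in P14 replicate 1 and 432 to 566 in the other P14 libraries, against 314 to 362 at E17.5. Striated muscle and brown adipocyte markers summed to less in P14 replicate 1 (38.2 and 130.3) than in any other library. Fabp4 alone made up 123.0 FPKM of the brown adipocyte sum in P14 replicate 1. Of the 8 brown adipocyte markers, 4 were higher in every P14 library than in any E17.5 library and 1, Fabp4, was lower. Of the 10 striated muscle markers, 1 was higher in every P14 library and 4 were lower. The part of these shifts in the results for complex I was not tested. In bulk RNA, fewer cells of a type and less RNA per cell cannot be told apart.

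The promoters of the genes at both ends of the range of change are shown first, since they carry the regulatory sequence of the genes the results turn on. RefSeq sequence of GRCm38.p6, from 250 bases before to 50 after the start of the gene, was matched for 42 of the 50 genes. Among the 3 genes with the largest increase it covered Ndufs6 (chr13:73328433-73328732, minus strand) and Ndufa1 (chrX:37191189-37191488, minus strand), and among the 3 at the lower end it covered Ndufaf1 (chr2:119662785-119663084, minus strand), Ndufaf4 (chr4:24897833-24898132, plus strand) and Ndufaf2 (chr13:108158576-108158875, minus strand). Sequences run 5′ to 3′ along the gene, and capitals mark matches, on either strand, to the motifs GCGCA, any base, GCGC (NRF1), AAGGTCA (estrogen-related receptor), CCGGAAG (GABPA) or AAGATGGCG (YY1), named for factors known as regulators of nuclear genes for mitochondria.
Ndufs6: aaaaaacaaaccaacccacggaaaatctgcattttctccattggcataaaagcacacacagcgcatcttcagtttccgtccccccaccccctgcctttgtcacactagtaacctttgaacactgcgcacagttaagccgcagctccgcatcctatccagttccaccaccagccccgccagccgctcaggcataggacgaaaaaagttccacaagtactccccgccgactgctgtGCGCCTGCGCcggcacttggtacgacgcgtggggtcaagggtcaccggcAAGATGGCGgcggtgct
Ndufa1: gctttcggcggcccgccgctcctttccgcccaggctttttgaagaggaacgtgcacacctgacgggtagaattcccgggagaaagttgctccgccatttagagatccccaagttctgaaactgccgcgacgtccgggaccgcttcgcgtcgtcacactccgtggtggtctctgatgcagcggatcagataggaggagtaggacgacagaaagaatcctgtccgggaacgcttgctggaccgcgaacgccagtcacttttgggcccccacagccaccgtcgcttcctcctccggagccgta
Ndufaf1: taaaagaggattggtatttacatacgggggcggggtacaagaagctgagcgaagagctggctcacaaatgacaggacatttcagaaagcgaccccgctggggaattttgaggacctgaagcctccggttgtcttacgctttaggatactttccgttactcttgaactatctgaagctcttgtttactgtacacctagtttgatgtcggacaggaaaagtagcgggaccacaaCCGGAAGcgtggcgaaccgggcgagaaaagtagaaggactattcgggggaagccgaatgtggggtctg
Ndufaf4: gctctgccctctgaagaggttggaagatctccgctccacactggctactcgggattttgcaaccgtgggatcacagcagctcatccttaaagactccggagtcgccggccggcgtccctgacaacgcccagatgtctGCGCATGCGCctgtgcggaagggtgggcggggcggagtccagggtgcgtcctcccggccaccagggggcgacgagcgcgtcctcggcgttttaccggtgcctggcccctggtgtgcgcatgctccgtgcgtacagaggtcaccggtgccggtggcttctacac
Ndufaf2: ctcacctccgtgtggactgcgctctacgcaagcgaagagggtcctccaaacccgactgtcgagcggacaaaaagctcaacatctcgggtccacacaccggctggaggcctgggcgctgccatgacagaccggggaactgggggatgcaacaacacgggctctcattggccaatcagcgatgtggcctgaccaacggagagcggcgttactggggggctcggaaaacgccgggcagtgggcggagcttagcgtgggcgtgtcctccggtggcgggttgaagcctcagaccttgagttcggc

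Ndufs6 held an NRF1 match that begins 16 bases before the start and a YY1 match that begins 33 bases after it. Ndufaf1 held a GABPA match 18 bases before the start, Ndufaf4 held an NRF1 match 113 bases before it, and Ndufa1 and Ndufaf2 held none of the 4 motifs. Motifs were counted by gene, in any promoter of the gene, against all genes of the RefSeq promoter table, expressed or not. Over the 42 genes, the NRF1 motif was present in 21.4% against 5.19% of 27025 genes, and the YY1 motif in 14.3% against 1.64%. The GABPA motif was present in 14.3% against 9.93%, and the estrogen-related receptor motif in 7.14% against 5.38%. By kind, the NRF1 motif was in 7 of 35 subunit genes and 2 of 7 assembly factor genes, and 22 of the 42 genes held no match to any of the 4. No match overlapped another in the promoters shown. These are letter matches in a fixed window and say nothing of binding.

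At P14 the nuclear complex I genes were higher as a group, with the subunits well above the assembly factors. FPKM divides the reads of a gene by its length and by a library size, which puts genes of different length on a common scale. In the deposited values that size was 0.78 times the assigned reads for P14 replicate 1 and 1.02 to 1.06 times for the other libraries. Differences are given as log2 fold changes, P14 over E17.5, of FPKM + 1. Of the 50 genes, 49 reached 1 FPKM in 4 or more of the 8 libraries and were tested, and Ndufs6b did not. By limma's test, adjusted by the Benjamini-Hochberg method over the 14044 genes, 35 of the 49 rose at P14, against 9.72% of all tested genes, and 0 fell, against 15% of all tested genes. None of the 49 was lower at an unadjusted p under 0.05, and 0 fell by voom. The median difference over the 49 was 0.63, against 0.0022 over all tested genes, and 47 of the 49 differences were positive. In 34 of the 49, all 4 P14 libraries lay above all 4 E17.5 libraries, against 15.6% of all tested genes, and in 0 of the 49 did all P14 libraries lie below all E17.5 libraries, against 20.4%. Without P14 replicate 1, 39 of the 49 rose, against 22.6% of all tested genes, 0 fell, against 26.9%, and the median stayed at 0.63. The 3 remaining P14 libraries lay above all E17.5 libraries in 35 of 41 subunits and copies and in 3 of 8 assembly factors, against 24.8% of all tested genes.

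**Figure D1:**
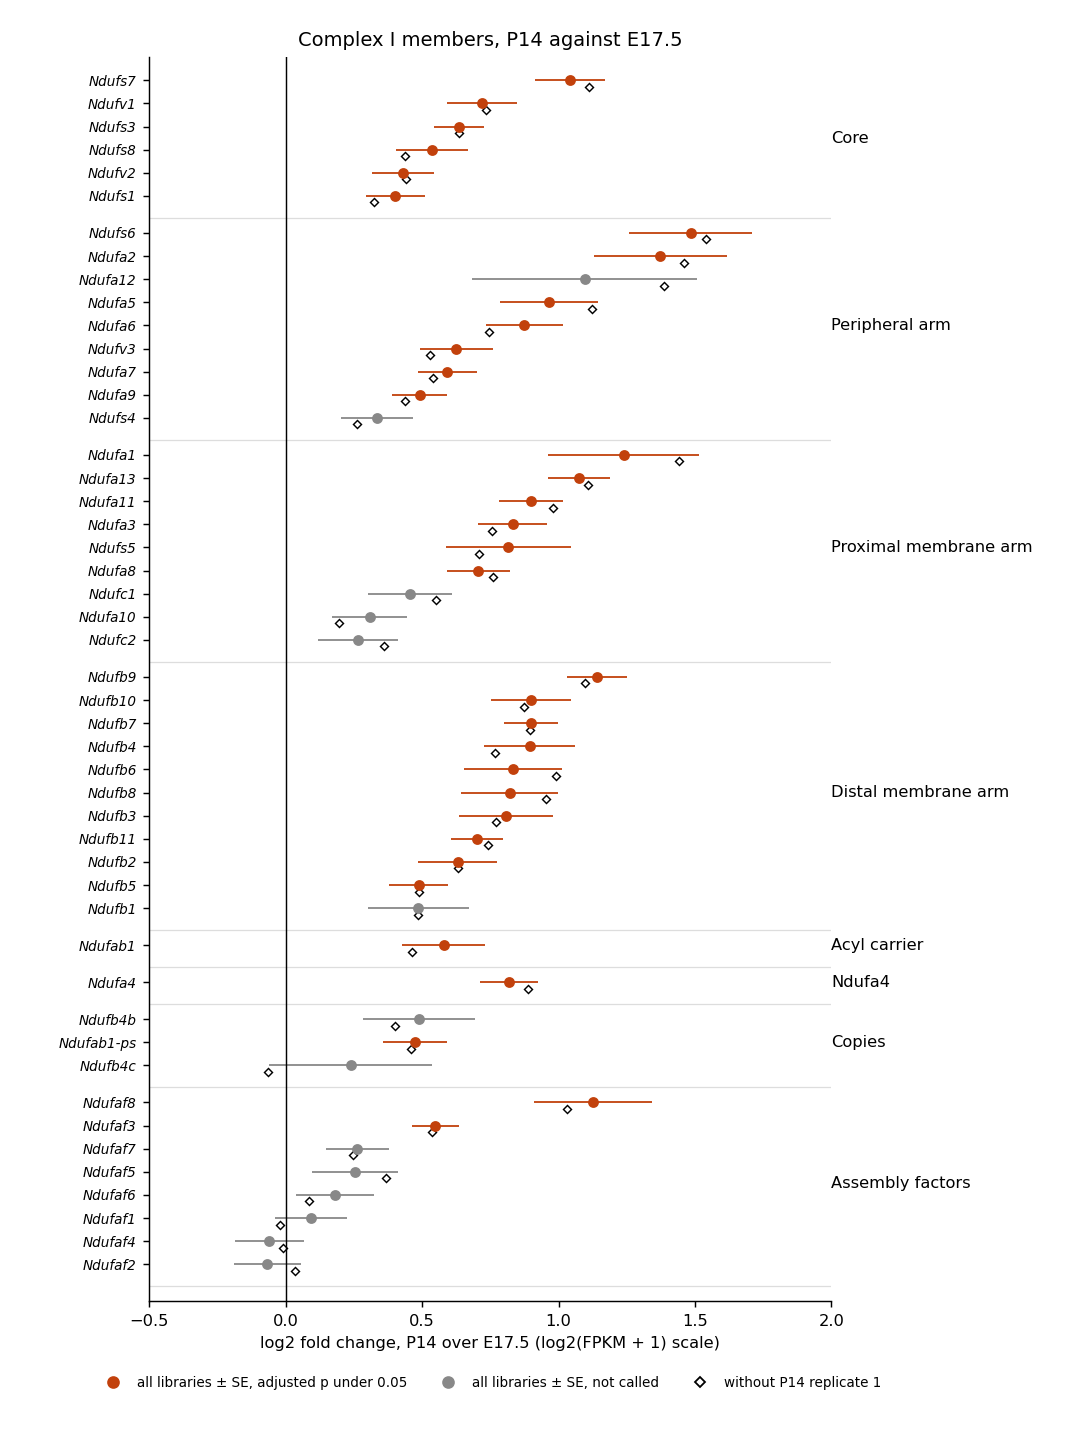
Log2 fold change (P14 over E17.5, of FPKM + 1) of the tested genes reported here, grouped by role: filled points with SE bars are the fit of all 8 libraries (orange, called; grey, not called) and open diamonds the fit without P14 replicate 1. Subunits cluster around their median of 0.71, while 6 of the 8 assembly factors lie between -0.067 and 0.26.

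The nuclear core subunits described here, Ndufs7, Ndufv1, Ndufs3, Ndufs8, Ndufv2 and Ndufs1, each rose, against 9.72% of all tested genes. Ndufs7, which carries the last iron-sulfur cluster before ubiquinone (chr10:80084939-80092628, GRCm39, plus strand), measured 77.1, 102.5, 89.1 and 90.9 FPKM in P14 replicates 1 to 4, against 49.7, 38.4, 39.7 and 44.9 FPKM in E17.5 replicates 1 to 4. Every P14 library lay above every E17.5 library, and the difference was 1.04 (SE 0.128, limma adjusted p = 0.00179). Ndufv1 binds NADH and the flavin (chr19:4057499-4062755, minus strand) and measured 78.1, 87.4, 75.6 and 80.8 FPKM at P14, against 58.6, 51.6, 42.7 and 42.5 FPKM at E17.5. Its groups did not overlap, and it rose by 0.72 (SE 0.129, limma adjusted p = 0.00708). Ndufs3, a subunit of the ubiquinone-reducing module, measured 81.7, 89.1, 74.7 and 80.9 FPKM at P14, against 52.2, 52.4, 50.2 and 53.5 FPKM at E17.5. It rose by 0.64 (SE 0.0918, limma adjusted p = 0.00315) with a tight E17.5 group.

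The other core subunits moved less. Ndufs8, an iron-sulfur subunit, measured 80.9, 62.5, 55.8 and 65.7 FPKM at P14, against 48.8, 44.3, 40.7 and 46.2 FPKM at E17.5, a difference of 0.54 (limma adjusted p = 0.0221). Ndufv2, which carries an iron-sulfur cluster beside the flavin, measured 77.6, 89.9, 68.2 and 85.2 FPKM at P14, against 56.4, 56.1, 61.7 and 62.1 FPKM at E17.5, a difference of 0.43 (limma adjusted p = 0.0283). The largest core protein comes from Ndufs1, which measured 36.6, 30.8, 27.4 and 30.0 FPKM at P14, against 22.5, 24.5, 22.8 and 23.2 FPKM at E17.5, a difference of 0.40 (limma adjusted p = 0.031). P14 replicate 1 was the highest P14 library for Ndufs8 and Ndufs1 but not for Ndufv2. The calls of Ndufs1 (adjusted p up to 0.092) and Ndufv2 (up to 0.0823) were lost without any 1 E17.5 library or P14 replicate 2 or 4, and that of Ndufs8 (up to 0.0751) was lost without E17.5 replicate 2, 3 or 4 or P14 replicate 4.

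Of the 9 accessory subunits of the peripheral arm, 7 rose, against 9.72% of all tested genes, with a median difference of 0.87. Ndufs6, a zinc-binding subunit needed to complete the arm (chr13:73467995-73476601, GRCm39, minus strand), showed the largest increase of all 49 genes. It measured 55.8, 81.6, 62.5 and 54.9 FPKM at P14, against 27.4, 29.1, 17.7 and 16.0 FPKM at E17.5. The lowest P14 library was well above the highest E17.5 library, and the difference was 1.48 (SE 0.226, limma adjusted p = 0.00408). Ndufa2, a small subunit with a thioredoxin-like fold, measured 101, 146, 119 and 124 FPKM at P14, against 65.2, 59.5, 33.6 and 35.3 FPKM at E17.5. It rose by 1.37 (SE 0.242, limma adjusted p = 0.00678), with E17.5 replicates 1 and 2 higher than 3 and 4, as in Ndufs6. Ndufa5 and Ndufa6 rose by 0.96 (limma adjusted p = 0.00837) and 0.87 (limma adjusted p = 0.00485). They are small peripheral subunits, the second of the LYR family that binds the acyl carrier protein, and P14 replicate 1 was the lowest P14 library for Ndufa5 (64.4 FPKM, others 85.3 to 117) and the highest for Ndufa6 (143.9 FPKM, others 94.8 to 104.6).

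Ndufv3, Ndufa7 and the NADPH-binding Ndufa9 rose by 0.63, 0.59 and 0.49 (limma adjusted p = 0.0131, 0.00739 and 0.0122). The other 2 peripheral accessory subunits were not called. Ndufs4, whose loss causes Leigh syndrome in people and a like disease in mice, averaged 35.9 ± 4.47 FPKM at P14 and 28.2 ± 3.37 FPKM at E17.5 (SD, n = 4 each), with overlapping groups and a difference of 0.33 (limma adjusted p = 0.097). Ndufa12, which in human cells takes the place held by the assembly factor NDUFAF2, measured 18.1, 55.6, 31.7 and 41.7 FPKM at P14, against 13.2, 30.8, 10.0 and 13.5 FPKM at E17.5. The spread within each age was wide, P14 replicate 1 fell below E17.5 replicate 2, and the difference of 1.10 missed the threshold (SE 0.412, limma adjusted p = 0.0879). It passed without P14 replicate 1 (1.39, limma adjusted p = 0.0226) and without E17.5 replicate 2 (1.41, limma adjusted p = 0.043).

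**Figure D2:**
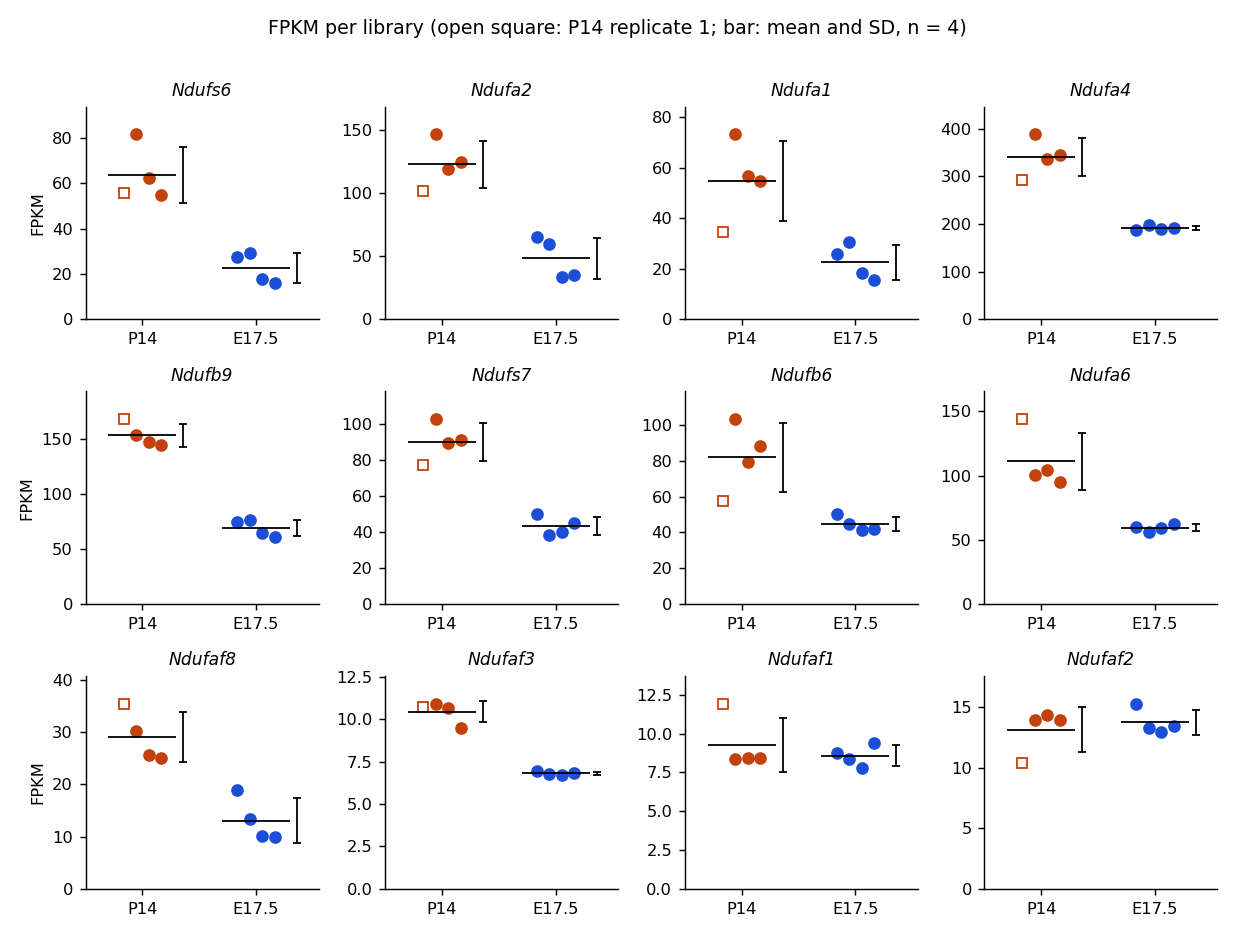
FPKM in each library (points; bars, mean and SD, n = 4) of 12 complex I genes, P14 left and E17.5 right in each panel, with P14 replicate 1 as an open square. The ages overlap in Ndufaf1 and Ndufaf2 and in none of the other panels. P14 replicate 1 lies outside the range of the other P14 libraries in every panel but those of Ndufs6 and Ndufaf3.

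On the proximal part of the membrane arm, 6 of 9 accessory subunits rose, against 9.72% of all tested genes, with a median of 0.82. Ndufa1, an X-linked membrane anchor (chrX:36451241-36454891, GRCm39, minus strand), measured 34.4, 73.2, 56.7 and 54.5 FPKM at P14, against 26.0, 30.5, 18.3 and 15.6 FPKM at E17.5. P14 replicate 1 stood closest to the E17.5 libraries but above all of them, and the difference was 1.24 (SE 0.277, limma adjusted p = 0.0165). The call was lost without E17.5 replicate 3 (limma adjusted p = 0.0564). Ndufa13, also known as GRIM-19, measured 51.6, 64.5, 51.7 and 55.1 FPKM at P14, against 28.1, 27.0, 23.1 and 25.5 FPKM at E17.5, and rose by 1.07 (SE 0.113, limma adjusted p = 0.00104). Ndufa11, which spans the membrane several times, rose by 0.90 (limma adjusted p = 0.00221), Ndufa3 by 0.83 (limma adjusted p = 0.00387) and Ndufa8, with paired cysteine motifs facing the intermembrane space, by 0.71 (limma adjusted p = 0.00481).

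Ndufs5, another intermembrane-space subunit, measured 106, 78.8, 96.8 and 63.5 FPKM at P14, against 44.9, 41.6, 70.7 and 39.2 FPKM at E17.5. It was the only called gene of the 49 whose groups overlapped, because E17.5 replicate 3 exceeded P14 replicate 4. Its difference of 0.82 (SE 0.23, limma adjusted p = 0.0359) lost its call when E17.5 replicate 1, 2 or 4 or P14 replicate 2 or 3 was left out (adjusted p up to 0.0993). Ndufc1, Ndufa10 and Ndufc2 were not called, with differences of 0.45, 0.31 and 0.26 (limma adjusted p = 0.0648, 0.135 and 0.212). Without P14 replicate 1, which was the lowest P14 library for Ndufc1 and Ndufc2, these passed at 0.55 (limma adjusted p = 0.00684) and 0.36 (limma adjusted p = 0.0285).

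The distal part of the membrane arm, where the Ndufb subunits sit, had 10 of its 11 genes higher, against 9.72% of all tested genes. The median of the 11 genes was 0.82. Ndufb9, a LYR-family subunit (chr15:58805650-58811365, GRCm39, plus strand), measured 168, 154, 148 and 144 FPKM at P14, against 74.9, 76.5, 64.8 and 61.0 FPKM at E17.5. It rose by 1.14 (SE 0.112) with the smallest adjusted p of the 49 genes (limma, 0.000801), and each P14 library exceeded the E17.5 libraries by a wide margin. Ndufb10, Ndufb7 and Ndufb4 rose by 0.90, 0.90 and 0.89, Ndufb6, Ndufb8 and Ndufb3 by 0.83, 0.82 and 0.81, and Ndufb11, Ndufb2 and Ndufb5 by 0.70, 0.63 and 0.49 (limma adjusted p between 0.00118 and 0.018). Leaving out E17.5 replicate 3 ended the calls of Ndufb6 (adjusted p = 0.0506), Ndufb8 (0.0519), Ndufb2 (0.0551) and Ndufb5 (0.0538), and Ndufb2 was also lost without E17.5 replicate 4. Ndufb1, the shortest of the genes at 339 bases, measured 57.0, 56.3, 55.9 and 57.7 FPKM at P14, against 30.1, 35.5, 42.5 and 57.3 FPKM at E17.5. E17.5 replicate 4 lay within the P14 range, and the difference of 0.49 was not called (SE 0.185, limma adjusted p = 0.0901) except when that library was left out (0.65, limma adjusted p = 0.024).

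Ndufab1, the mitochondrial acyl carrier protein that serves fatty acid synthesis and also sits in complex I, measured 45.0, 35.9, 27.5 and 34.2 FPKM at P14, against 21.4, 22.3, 23.7 and 25.6 FPKM at E17.5. It rose by 0.58 (limma adjusted p = 0.0279), a call that was lost without any 1 E17.5 library or P14 replicate 2 or 4 (adjusted p up to 0.0757). Ndufa4, named as a complex I subunit and now placed in complex IV (chr6:11900371-11907449, GRCm39, minus strand), had the highest mean level per length of the 50 genes. It measured 292, 389, 337 and 345 FPKM at P14, against 188, 198, 190.3 and 191 FPKM at E17.5. It rose by 0.82 (SE 0.105, limma adjusted p = 0.00206) with no overlap, P14 replicate 1 being the lowest P14 library.

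The remaining genes are copies that carry subunit names. Ndufab1-ps, listed as protein-coding, measured 20.6, 18.0, 19.5 and 22.1 FPKM at P14, against 17.04, 13.6, 12.8 and 13.4 FPKM at E17.5. It rose by 0.47 (limma adjusted p = 0.0232), and the call was lost without E17.5 replicate 2, 3 or 4 or P14 replicate 3 or 4 (adjusted p up to 0.0784). Ndufb4b, the tested gene with the lowest mean FPKM, measured 2.27, 2.56, 1.36 and 0.999 FPKM at P14, against 1.11, 0.733, 1.23 and 0.746 FPKM at E17.5, and was not called (0.49, limma adjusted p = 0.118). Ndufb4c measured 5.15, 1.24, 2.09 and 1.72 FPKM at P14, against 2.26, 1.54, 1.96 and 1.45 FPKM at E17.5, with overlapping groups; its difference was 0.24 with all libraries and -0.064 without P14 replicate 1. Ndufs6b, which was not tested, measured 2.26, 0.463, 0.563 and 0.441 FPKM at P14, against 0.989, 0.850, 0.890 and 2.01 FPKM at E17.5, so that its P14 libraries other than replicate 1 lay below the E17.5 group. Reads of such copies and of their parents can be exchanged in counting, so their values are uncertain.

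Of the 8 Ndufaf assembly factors, 2 rose, against 9.72% of all tested genes, and 6 were not called. Ndufaf8, which in human cells stabilises NDUFAF5 (chr11:119989760-119991250, GRCm39, plus strand), measured 35.4, 30.2, 25.6 and 25.0 FPKM at P14, against 18.99, 13.4, 10.0 and 9.86 FPKM at E17.5. It rose by 1.13 (SE 0.217, limma adjusted p = 0.00934), and the groups did not overlap. Ndufaf3, which acts with Ndufaf4 in building the ubiquinone-reducing module, measured 10.7, 10.9, 10.6 and 9.51 FPKM at P14, against 6.95, 6.80, 6.71 and 6.80 FPKM at E17.5. Its spread within each age was small, and it rose by 0.55 (SE 0.0865, limma adjusted p = 0.00442). Its partner Ndufaf4 measured 6.18, 7.05, 6.14 and 8.75 FPKM at P14, against 6.69, 7.28, 7.45 and 7.85 FPKM at E17.5, a difference of -0.060 (limma adjusted p = 0.75) with overlapping groups.

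Ndufaf5, which hydroxylates an arginine of the NDUFS7 protein in human cells, measured 3.21, 5.84, 4.54 and 4.15 FPKM at P14, against 3.88, 3.34, 3.64 and 3.15 FPKM at E17.5. P14 replicate 1 was the library that overlapped the E17.5 group, and the difference of 0.25 (limma adjusted p = 0.268) passed only without it, at 0.37 (limma adjusted p = 0.0295). Ndufaf7, a protein arginine methyltransferase of the mitochondrial matrix, measured 9.81, 10.6, 8.56 and 8.94 FPKM at P14, against 7.64, 7.90, 8.87 and 6.57 FPKM at E17.5, a difference of 0.26 (limma adjusted p = 0.134). The groups overlapped through P14 replicate 3 and E17.5 replicate 3. Ndufaf6, the longest of the genes at 5036 bases, measured 2.36, 1.78, 1.17 and 1.85 FPKM at P14, against 1.30, 1.42, 1.43 and 1.58 FPKM at E17.5, a difference of 0.18 (limma adjusted p = 0.386). P14 replicate 3 was the lowest of the 8 libraries for it.

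Ndufaf1 is part of the assembly complex for the membrane arm and measured 11.9, 8.34, 8.44 and 8.45 FPKM at P14, against 8.77, 8.35, 7.77 and 9.38 FPKM at E17.5. P14 replicates 2 to 4 lay within the E17.5 range and replicate 1 above it; the difference was 0.093 (limma adjusted p = 0.634), -0.021 without P14 replicate 1 and -0.087 after rescaling to TPM. Ndufaf2, the chaperone that in human cells precedes NDUFA12, measured 10.4, 13.95, 14.3 and 13.9 FPKM at P14, against 15.3, 13.3, 13.0 and 13.5 FPKM at E17.5. Here P14 replicate 1 was the lowest library, and the difference was -0.067 (limma adjusted p = 0.713) with it and 0.033 without it. Ndufa12, the subunit that replaces it, stood at 36.8 ± 15.8 FPKM at P14 and 16.9 ± 9.42 FPKM at E17.5 (SD, n = 4 each), as described above.

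Subunits and assembly factors thus differed in their counts. Of 41 tested subunits and copies, 33 rose, with a median of 0.71. Of 8 assembly factors, 2 rose, with a median of 0.22. Over all tested genes, 9.72% rose. The median value relative to the E17.5 mean, over the 41 subunits, was 0.66, 0.84, 0.63 and 0.67 on the log2 scale in P14 replicates 1 to 4, against 0.11, 0.01, -0.07 and -0.07 in E17.5 replicates 1 to 4. Over the 8 assembly factors it was 0.37, 0.30, 0.10 and 0.21 at P14, against 0.03, -0.01, -0.01 and -0.01 at E17.5. In deposited FPKM both medians were above those of the E17.5 libraries in every P14 library, and the subunit median exceeded the factor median in each; by share of assigned reads, the assembly factors of P14 replicate 1 were below the E17.5 libraries (0.0101% against 0.0106% to 0.0111%). Levels per length also differed, with a median over the genes of 55.6 FPKM for subunits and 8.62 FPKM for assembly factors across all 8 libraries. Without P14 replicate 1 the counts were 36 of 41 and 3 of 8, against 22.6% of all tested genes. The difference between the 2 kinds is given without a test, since genes are not replicates of a condition and the kinds differ in length and level.

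The complex I genes were short. The median gene length of the 49 tested genes was 936 bases (range 339 to 5036), and 3.97% of the tested protein-coding genes were that short; the median was 795 bases for subunits and 2004 bases for assembly factors. Among the genes of 936 bases or less, 19 of 25 genes rose, against 27.6% of all 504 tested protein-coding genes of that length, with a median difference of 0.82 against 0.34. Among the longer genes, 16 of 24 genes rose, against 9.02% of the 12189 longer protein-coding genes, with a median of 0.51 against -0.011. A larger share of short than of long protein-coding genes thus rose, and in both ranges of length the complex I genes had a higher share of calls and a higher median than all genes of that range.

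Within subunits alone, 18 of 23 short ones rose with a median of 0.82, and 15 of 18 long ones with a median of 0.59. Of the assembly factors, 1 of 2 short ones (Ndufaf8) and 1 of 6 long ones (Ndufaf3) rose, with medians of 0.53 and 0.22. Of all tested protein-coding genes in the short and long ranges, 27.6% and 9.02% rose. As a description, the difference correlated with log2 length at Pearson r = -0.48 (Spearman rho = -0.44) over the 49 genes, at r = -0.29 (rho = -0.26) over the 41 subunits and copies, and at r = -0.20 (rho = -0.23) over 12693 tested protein-coding genes. With log2 mean FPKM it correlated at r = 0.52 (rho = 0.50) over the 49 genes and at r = 0.32 (rho = 0.33) over the subunits. These points share the 8 libraries, and the pseudocount makes the differences of low genes smaller. The parts of length, level and role in these differences were not tested.

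**Figure D3:**
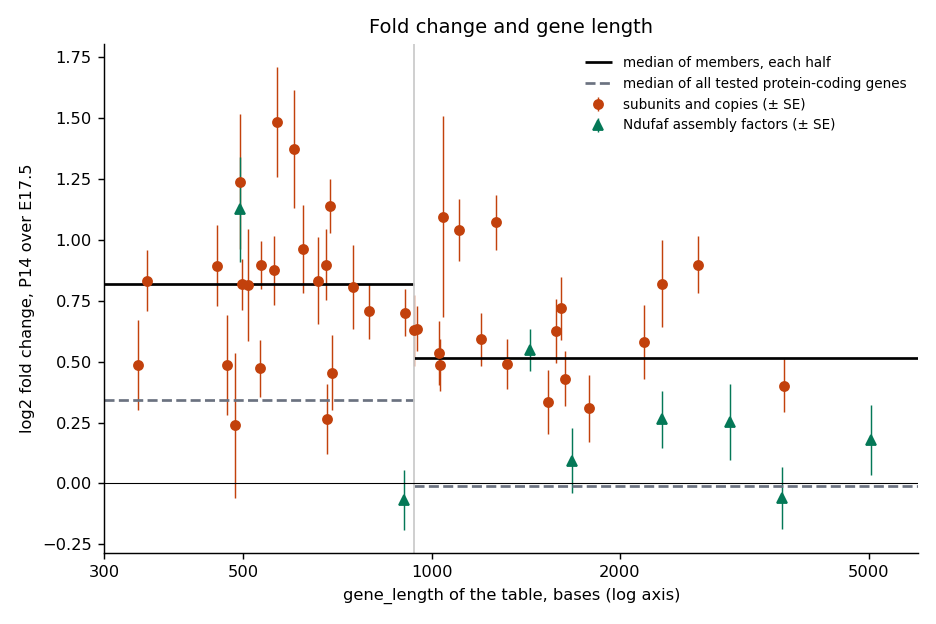
Log2 fold change (P14 over E17.5, of FPKM + 1) of the tested complex I genes reported here against its gene length in bases (log axis), subunits as circles and assembly factors as triangles, with SE bars. Solid lines are the medians of the complex I genes on each side of 936 bases, and dashed lines the medians of all tested protein-coding genes of the same lengths (0.34 and -0.011). The genes of 936 bases or less have a median of 0.82 and the longer ones a median of 0.51.

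The height of P14 replicate 1 relative to the other libraries depended on the scale. Its ratio to the mean of the other 3 P14 libraries had a median of 1.01 over the 49 genes in deposited FPKM, and of 1.04 over the assembly factors, against 1.02 over all tested genes. After rescaling each library to TPM, so that every library has the same sum, the median was 0.716, against 0.728 over all tested genes. The deposited FPKM summed to 504693 in this library and to 350080 to 366312 in the other P14 libraries, against 333278 to 350548 at E17.5. The complex I genes took 0.233% of the assigned reads in P14 replicate 1 and 0.334%, 0.295% and 0.312% in P14 replicates 2 to 4, against 0.204%, 0.199%, 0.186% and 0.186% in E17.5 replicates 1 to 4. By share of reads, P14 replicate 1 was therefore the lowest P14 library and still above every E17.5 library. For the assembly factors the shares were 0.0101%, 0.0137%, 0.0124% and 0.0132% at P14, against 0.0111%, 0.0109%, 0.0109% and 0.0106% at E17.5, with P14 replicate 1 below the E17.5 libraries.

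Single genes of this library went both ways in FPKM. It was the lowest P14 library for 17 of the 49 genes, the highest for 19 and between the others for 13. The lowest ratios to the mean of the other P14 libraries were 0.42 for Ndufa12, 0.56 for Ndufa1, and 0.64 for both Ndufa5 and Ndufb6. The highest were 4.62 for the untested Ndufs6b and 3.05 for Ndufb4c, low-level copies, followed by 1.48 for Ndufaf6 and 1.44 for Ndufa6. In TPM, 19 of the 49 genes rose, against 6.4% of all tested genes, and 0 fell, against 19.1%. The 19 were 18 of 41 subunits and copies and 1 of 8 assembly factors (Ndufaf8). All P14 libraries lay above all E17.5 libraries in 20 of the 49, against 9.09% of all tested genes. The rescaling moved the median of all tested genes to -0.18; relative to it, the median of the subunits was 0.70 and that of the assembly factors 0.27, against 0.70 and 0.21 in deposited FPKM. The part of the epithelial RNA and of the scaling in the values of this library was not tested.

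Of the 35 genes that rose, 23 were called in all 8 omissions of 1 library, and 17 of these also after rescaling to TPM. Of the genes described above with values, Ndufs6, Ndufa2, Ndufb9, Ndufa13, Ndufs7, Ndufs3, Ndufa4 and Ndufaf8 were among the 17, but Ndufs3 (limma adjusted p = 0.0527) and Ndufa4 (limma adjusted p = 0.0715) lost their calls under quantile scaling. In every setting run, 15 genes were called. Ndufa5, Ndufa8, Ndufa9, Ndufb11, Ndufv1 and Ndufaf3 were called in every omission but not in TPM (adjusted p between 0.0525 and 0.0759). Of the genes lost in some omission, Ndufv2, Ndufs1, Ndufa1, Ndufs5, Ndufb2, Ndufb5, Ndufb6, Ndufb8 and Ndufab1-ps were not called in TPM either (limma adjusted p between 0.059 and 0.304).

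Pseudogene rows share the names of Ndufs5 and Ndufa12, and the split of reads between the rows differed between libraries of the same age. Ndufs5-ps (chr16:42775943-42776442, GRCm39) measured 1.57, 59.8, 1.81 and 57.3 FPKM at P14, against 37.4, 30.2, 0.633 and 21.8 FPKM at E17.5. It held 1.43%, 42.7%, 1.81% and 47.0% of the reads of the pair at P14, against 45.0%, 41.6%, 0.872% and 35.3% at E17.5, so 3 libraries had nearly none. With the reads of both rows summed over the length of Ndufs5, the values were 108, 137, 98.5 and 119.8 FPKM at P14, against 81.7, 71.3, 71.3 and 60.6 FPKM at E17.5. The groups, which overlapped for Ndufs5 alone, then stood apart, with a difference of 0.69 (limma adjusted p = 0.0108).

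Ndufa12-ps (chr5:130217234-130217729, GRCm39) measured 37.1, 22.9, 35.5 and 21.9 FPKM at P14, against 21.1, 6.62, 27.1 and 31.1 FPKM at E17.5. It held 49.3%, 16.4%, 34.8% and 20% of the reads of the pair at P14, against 43.2%, 9.27%, 56.3% and 52.2% at E17.5. Summed over the length of Ndufa12, the values were 35.8, 66.5, 48.6 and 52.2 FPKM at P14, against 23.3, 34.0, 22.9 and 28.3 FPKM at E17.5. The sum separated the ages narrowly, with P14 replicate 1 just above E17.5 replicate 2, and its difference was 0.86 (limma adjusted p = 0.0206). With both sums in place of the parent rows, 36 of the 49 genes rose, against 9.73% of all tested genes. The sum was added after the values had been seen.

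**Figure D4:**
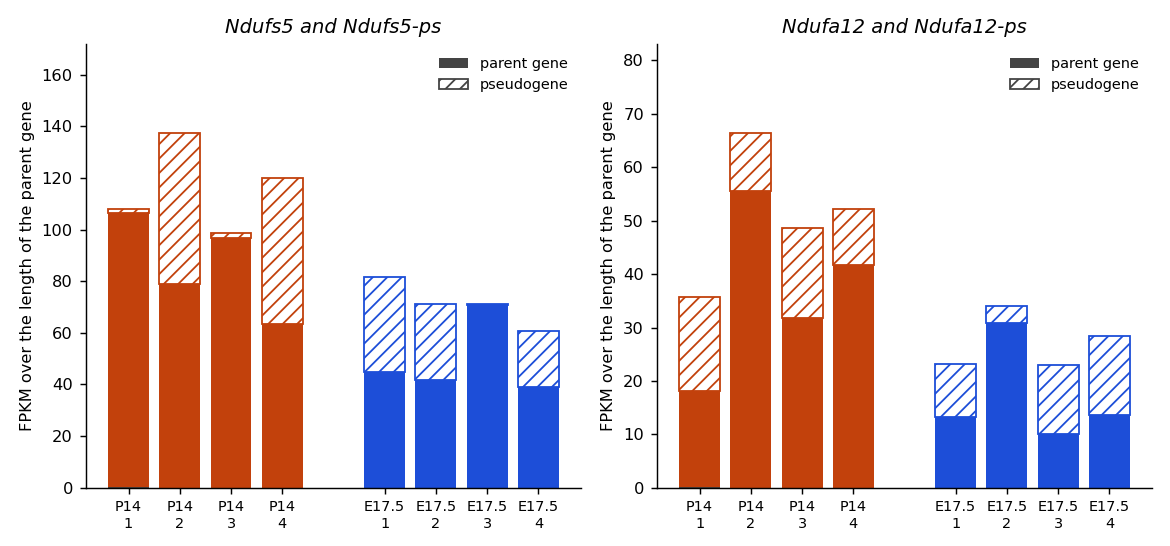
Stacked bars of FPKM over the length of the parent gene in each library, P14 left and E17.5 right, for Ndufs5 and Ndufa12 (filled) and the pseudogene rows that carry their names (hatched). The share on Ndufs5-ps is 0.872% to 47.0% across libraries, and the summed values of both pairs do not overlap between the ages.

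Of the 7 subunits encoded in mitochondrial DNA, 3 rose, against 9.72% of all tested genes, with a median difference of 0.45. ND1 alone was called after rescaling to TPM, after quantile scaling or without the filter on low values. With the replicate number as a block, ND1, ND2 and ND4 were not called. The ND subunits are the proton-pumping and ubiquinone-binding core of the membrane arm. ND1, at the ubiquinone entry, measured 7399, 6946, 4756 and 6691 FPKM at P14, against 2752, 3034, 3734 and 4517 FPKM at E17.5. Its groups did not overlap, and it rose by 0.88 (SE 0.196, limma adjusted p = 0.0158). ND2 and ND4, subunits with proton channels, rose by 0.76 (limma adjusted p = 0.0258) and 0.67 (limma adjusted p = 0.0413), and both calls were lost without E17.5 replicate 1, 2 or 3 or P14 replicate 2 or 4. The ND4 groups overlapped, with 1798 FPKM in P14 replicate 3 and 1968 FPKM in E17.5 replicate 4. In the same 2 libraries ND2 measured 2053 and 2043 FPKM, so its groups stood apart only narrowly. ND3, ND6, ND4L and ND5 were not called, at 0.45, 0.45, 0.35 and 0.32 (limma adjusted p = 0.16 to 0.263). Mitochondrial genes as a whole took 3.25% to 4.61% of assigned reads at P14 and 2.20% to 3.54% at E17.5, overlapping ranges.

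Of 12 tested assembly factors outside the Ndufaf names, 1 rose, against 9.72% of all tested genes, and 0 fell, against 15%, with a median of -0.0029. Ecsit, a partner of Ndufaf1 in assembly, averaged 9.11 ± 0.534 FPKM at P14 and 6.09 ± 1.12 FPKM at E17.5 (SD, n = 4 each) and rose by 0.52 (limma adjusted p = 0.0227), a call lost without E17.5 replicate 2, 3 or 4 or P14 replicate 2 or 4. Acad9, its other partner, averaged 10.47 ± 1.83 FPKM at P14 and 10.8 ± 0.262 FPKM at E17.5. Without P14 replicate 1, 2 of the 12 rose, against 22.6% of all tested genes, and 3 fell, against 26.9%. Neither count stands apart from the shares over all genes.

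Of 14 tested factors listed for mitochondrial gene activation, 2 rose, against 9.72% of all tested genes, and 3 fell, against 15%. Their median was -0.19. These counts are near the shares over all genes. The list mixes factors of nuclear genes with Tfam, Tfb1m, Tfb2m and Polrmt, which act on mitochondrial DNA and were not called. Esrra, an estrogen-related receptor, measured 89.8, 20.3, 32.1 and 19.96 FPKM at P14, against 9.09, 9.44, 7.57 and 7.01 FPKM at E17.5. P14 replicate 1 was far above the rest, and the difference was 1.88 (limma adjusted p = 0.0195) with it and 1.41 (limma adjusted p = 0.000421) without it. The call was lost without E17.5 replicate 3 or 4. The coactivator Ppargc1a averaged 1.81 ± 0.184 FPKM at P14 and 1.151 ± 0.239 FPKM at E17.5 (SD, n = 4 each) and rose by 0.39 (limma adjusted p = 0.0408). In TPM, Ppargc1a was not called (limma adjusted p = 0.136). Nrf1, whose motif is marked in Ndufs6 and Ndufaf4 above, averaged 2.80 ± 0.323 FPKM at P14 and 3.86 ± 0.162 FPKM at E17.5 and fell by 0.36 on the log2 scale (limma adjusted p = 0.0383). Gabpa averaged 15.2 ± 0.589 FPKM at P14 and 21.5 ± 2.34 FPKM at E17.5 and fell by 0.47 (limma adjusted p = 0.0153), and the coactivator Pprc1 averaged 6.63 ± 1.202 FPKM at P14 and 10.1 ± 0.755 FPKM at E17.5 and fell by 0.55 (limma adjusted p = 0.0216). Yy1, whose motif is also marked in Ndufs6, was not called with all libraries (-0.26, limma adjusted p = 0.0831). It was called lower without P14 replicate 1 (-0.32, limma adjusted p = 0.00349) and in TPM (-0.45, limma adjusted p = 0.0173). The calls of Ppargc1a and Nrf1 were lost without E17.5 replicate 1, 2 or 3 or P14 replicate 2 or 4 (Ppargc1a also without P14 replicate 3, Nrf1 without E17.5 replicate 4), that of Pprc1 without E17.5 replicate 1, 2 or 3 or P14 replicate 3, and that of Gabpa without E17.5 replicate 3.

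Of 7 tested genes for mitochondrial proteases and turnover receptors, 3 rose, against 9.72% of all tested genes, and 2 fell, against 15%, with a median of 0.027. After rescaling to TPM, 1 rose, against 6.4% of all tested genes, and 3 fell, against 19.1%. Pink1, a kinase that marks damaged mitochondria, averaged 59.0 ± 13.3 FPKM at P14 and 24.1 ± 3.29 FPKM at E17.5 (SD, n = 4 each) and rose by 1.24 (limma adjusted p = 0.00309). The matrix proteases Clpp and Lonp1, which degrade unassembled or damaged proteins, rose by 0.40 (limma adjusted p = 0.0398) and 0.37 (limma adjusted p = 0.04). Of the fits with all libraries or 1 left out, Clpp was called only with all libraries and without P14 replicate 1. Lonp1 was called in these and without E17.5 replicate 1. Neither was called in TPM or without the filter on low values, nor was Lonp1 after quantile scaling. The mitophagy receptors Bnip3l and Fundc1 fell by 0.63 (limma adjusted p = 0.00809) and 0.45 (limma adjusted p = 0.0176), and Fundc1 was lost without E17.5 replicate 3 or 4 or P14 replicate 3. With the replicate number as a block, Clpp, Lonp1, Bnip3l and Fundc1 were not called.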

How the data were processed

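RNA from 8 libraries was taken with TRIzol and made into libraries with an NEBNext Ultra kit, per the labels' protocols. The values deposited by the authors are FPKM, 1 for each gene in each library. CASAVA, fastp, HISAT2, featureCounts, DESeq2 1.20.0 and GRCm39 are named, without roles, per the submitters' processing notes, and the step that gave the FPKM and any use of strand in counting are not given in the sources used. FPKM times gene length gave whole multiples of 1 step for 100% of values (tolerance 1e-06), from which the reads were recovered. For P14 replicate 1 the FPKM had been divided by 0.78 times its assigned reads, and for the other libraries by 1.02 to 1.06 times theirs. Values of overlapping genes and near-identical copies are uncertain.

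Genes at 1 FPKM or more in at least 4 of 8 libraries (14044, of which 101 have no name) were tested as log2(FPKM + 1) with an intensity trend and robust moderation in limma 3.58.1, with statmod 1.5.0 and R 4.3.3, two-sided; adjusted p-values are Benjamini-Hochberg over all tested genes, called under 0.05. The script was tested on simulated counts without an outlying library, a setting that does not cover P14 replicate 1. Groups and replicate numbers came from titles. The complex I genes, the lists and the tests were chosen with earlier results of these data known. A gene that enters the counts and medians is not reported here. Values in every library were given for core subunits, Ndufaf genes, the 4 largest increases and the 4 at the lower end, and the highest and lowest mean level; Ndufa5, Ndufa6, Ndufa12, Ndufa13, Ndufs4, Ndufs5, Ndufb1, Ndufab1, Ndufc1, Ndufc2 and the copies were added after their values were seen. Of 180 list symbols, 172 matched by name and 7 by mitochondrial name. Alternatives were the pseudocount, the filter, TPM and quantile scaling, median-of-ratios factors, voom on the recovered reads, the replicate number as a block, and leaving out each library.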

Additional observations from a re-analysis of the deposited data

Results flagged for a closer look

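In 5 of 100 groups of 4 libraries (50 genes at 2 ages), 1 library stood far from the other 3, by the gap to its nearest neighbour as a share of the group's range, read against Dixon's critical value. That is 5% of the groups, and chance flags about 1 in 20. Ndufaf1 was highest in P14 replicate 1, at 11.9 FPKM (gap 0.970 of the range), and Ndufaf2 was lowest in the same library, at 10.4 FPKM (gap 0.895). Ndufs6b was highest in P14 replicate 1, at 2.26 FPKM (gap 0.933), and at E17.5 it was highest in replicate 4, at 2.01 FPKM (gap 0.880). Ndufa12 was highest in E17.5 replicate 2, at 30.8 FPKM (gap 0.831), the library with the lowest share of reads on Ndufa12-ps, 9.27%.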

How the results depend on the processing

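The count of complex I genes that rose was 35 with a pseudocount of 0.1 and without trend and robust moderation. It was 35 also with a mean of 5 FPKM or more as the filter, and 29 of 50 without a filter. Median-of-ratios factors were 0.999 for every library, so that setting left the deposited scale as it was, and its count of 35 is no separate check. Voom took its library sizes from factors of the same kind and also gave 35. No gene fell in any of these. After TPM scaling 19 rose (18 subunits and copies, 1 assembly factor, 11 of the genes up to 936 bases and 8 of the longer ones), with medians of 0.52, 0.084, 0.63 and 0.33 for subunits, assembly factors, shorter and longer genes, and P14 replicate 1 stood at a median of 0.716 times its age group's other members. After quantile scaling 22 rose (20 subunits and copies, 9 of the longer genes), with medians of 0.53, 0.63 and 0.33 for subunits, shorter and longer genes. The cause of these shifts was not tested. A split at the lower quartile of length, 2270 bases, gave medians of 0.70 for the 41 shorter and 0.29 for the 8 longer genes. Leaving out 1 library gave 24 to 39 genes that rose, lowest without E17.5 replicate 3 and highest without P14 replicate 1: 22 to 36 subunits and copies, 2 to 3 assembly factors, 15 to 21 of the shorter and 9 to 18 of the longer genes. The medians then ran over 0.66 to 0.75 for subunits, 0.16 to 0.27 for assembly factors, 0.76 to 0.86 for the shorter and 0.45 to 0.54 for the longer genes. Of all tested genes, 9.72% rose with all libraries, 6.4% after TPM scaling and 22.6% without P14 replicate 1. The shares under the other settings of this section are not given here. Among the complex I genes and ND subunits, the differences that changed sign were those of ND5 (-0.32) and ND6 (-0.087) after quantile scaling, of Ndufaf1 after TPM scaling (-0.087), and of 3 genes without P14 replicate 1: Ndufaf1 (-0.021, up to 0.13 without another library), Ndufaf2 (0.033, down to -0.11) and Ndufb4c (-0.064, up to 0.42). None of these was called. Same-numbered libraries did not deviate together (correlations of -0.03, 0.01, -0.06 and -0.05), so the numbers are taken as names only; with the replicate block, 29 genes rose. Depth limits the copies, with as few as 4 reads of Ndufs6b in a library.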

Other observations

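Ndufa4l2, the paralogue of Ndufa4 that is known as a hypoxia-inducible gene and in pericytes, went the other way. It measured 5.57, 17.6, 12.3 and 17.1 FPKM in P14 replicates 1 to 4, against 46.7, 39.3, 34.5 and 33.7 FPKM in E17.5 replicates 1 to 4, with every P14 library below every E17.5 library, and P14 replicate 1 the lowest. Ndufa4 itself lay between 292 and 389 FPKM at P14 and between 188 and 198 FPKM at E17.5.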
